A study of Mus musculus with 9 samples.

Results

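The dystrophin glycoprotein complex was followed through 8 of its genes in tibialis anterior (TA) muscle: *Dmd* (dystrophin), *Utrn* (utrophin), *Dtna* (α-dystrobrevin), *Dag1* (dystroglycan), *Sgca*, *Sgcb*, and *Sgcd* (α-, β-, and δ-sarcoglycan), and *Sntb1* (β1-syntrophin). They were taken by gene symbol from the array annotation, each has 1 row, and together they are 8 of 22206 gene rows. TA muscle, a fast muscle at the front of the shin, was collected at P28 from 9 mice, 3 in each of 3 groups, and the RNA of each was put on its own Clariom S Mouse array, which gives 1 log2 signal per gene. The design asks how muscle adapts when fewer nuclei reach its fibers. *Mymk* encodes Myomaker, which muscle progenitors need in order to fuse, and the *Pax7*creER allele, driven from *Pax7* and so active in satellite cells, deletes floxed *Mymk* after tamoxifen.

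Control mice had no Cre, were 8c LacZ/fl; mTmG/+ (replicates 1 and 6) or 8c fl/fl; mTmG/+ (replicate 2), and averaged 233 nuclei per myofiber by the labels, in which 8c stands for the *Mymk* locus and mTmG for a fluorescent membrane reporter. Δ1w mice received tamoxifen at P0, averaged 55 nuclei, and were 8c fl/fl; Pax7creER; mTmG/+ (replicate 1), 8c LacZ/fl; Pax7creER; mTmG/+ (replicate 5), and 8c fl/fl; Pax7creER (replicate 8). Δ2w mice received it at P6, averaged 100 nuclei, and were all 8c LacZ/fl; Pax7creER; mTmG/+. The paper gives these averages for fibers of another muscle, the extensor digitorum longus, so they are not counts of these TA samples. Its Δ2w average was counted later than P28. The labels record no tamoxifen for the controls, whereas the methods give it to all mice, so a direct effect of the drug and the deletion cannot be told apart if the labels hold. Sample names carry a number prefix of unstated meaning: control replicates 1 and 6 share 1 with all Δ2w mice, and no Δ1w mouse shares 1 with a control, so whatever it marks and the Δ1w deletion cannot be told apart. The LacZ allele was carried by 2 control, 1 Δ1w, and 3 Δ2w mice. *Mymk* signal was 11.61 to 12.03 in controls, 7.49 to 8.99 in Δ1w muscle, and 6.70 to 8.39 in Δ2w muscle, which sets both deleted groups apart from control as labelled. *Myh4*, the fast myosin that marks TA, was at 19.81 to 19.88 on all arrays, at or near the highest signal of each array (19.88 to 19.93). Among Δ1w arrays, replicate 1 had a circadian clock index (the mean log2 signal of 8 clock genes minus that of 5 clock genes of opposite phase) of 2.08, within the range of the other groups (1.68 to 2.63), whereas replicates 5 and 8 had −0.22 and −0.89.

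Dystrophin is a long rod under the muscle membrane that ties cytoskeletal actin to dystroglycan, whose outer subunit binds laminin in the basement membrane. Sarcoglycans sit beside dystroglycan as a tight group, and syntrophins and dystrobrevin hold signalling proteins on the inner face. Loss of dystrophin causes Duchenne muscular dystrophy, loss of single sarcoglycans causes limb-girdle dystrophies, and utrophin, a close relative of dystrophin, is enriched at the neuromuscular junction.

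*Sgcb* was the gene of the complex whose signal passed the test, and its promoter is shown beside that of *Sgca*, its partner in the sarcoglycan group, of *Dmd*, and of *Lama2*, the laminin chain that dystroglycan binds and whose signal also passed. Sequences are from RefSeq (GRCm38.p6), 250 bases before to 50 bases after an annotated start, 5′ to 3′ on the gene's strand, and capitals mark matches to CANNTG (an E-box) or to GGGCGG (a GC box) on either strand. Promoters were matched by symbol for 6 of the 8 genes, and none is shown for *Sntb1* or *Dtna*. The windows are chr5:73647688-73647987 (minus strand) for *Sgcb*, chr11:94976278-94976577 (minus strand) for *Sgca*, chrX:82948620-82948919 (plus strand) for 1 of the starts of *Dmd*, and chr10:27616893-27617192 (minus strand) for *Lama2*.
Sgcb: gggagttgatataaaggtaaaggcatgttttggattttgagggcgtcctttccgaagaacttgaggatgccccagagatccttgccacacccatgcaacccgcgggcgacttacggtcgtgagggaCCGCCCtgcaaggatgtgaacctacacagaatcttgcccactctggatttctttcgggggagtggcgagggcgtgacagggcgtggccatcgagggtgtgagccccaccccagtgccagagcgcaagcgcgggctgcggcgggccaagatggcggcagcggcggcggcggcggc
Sgca: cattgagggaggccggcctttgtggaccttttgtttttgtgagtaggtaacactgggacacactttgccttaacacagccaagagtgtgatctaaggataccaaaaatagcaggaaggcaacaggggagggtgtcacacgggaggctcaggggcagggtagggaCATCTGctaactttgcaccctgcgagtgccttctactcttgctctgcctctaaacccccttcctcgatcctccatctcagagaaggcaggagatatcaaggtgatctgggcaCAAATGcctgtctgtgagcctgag
Dmd: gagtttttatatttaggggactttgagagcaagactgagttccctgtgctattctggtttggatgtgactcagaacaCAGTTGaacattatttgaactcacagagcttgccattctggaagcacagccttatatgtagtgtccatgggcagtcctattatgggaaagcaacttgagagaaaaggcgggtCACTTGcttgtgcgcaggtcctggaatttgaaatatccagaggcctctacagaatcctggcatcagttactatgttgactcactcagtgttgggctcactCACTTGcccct
Lama2: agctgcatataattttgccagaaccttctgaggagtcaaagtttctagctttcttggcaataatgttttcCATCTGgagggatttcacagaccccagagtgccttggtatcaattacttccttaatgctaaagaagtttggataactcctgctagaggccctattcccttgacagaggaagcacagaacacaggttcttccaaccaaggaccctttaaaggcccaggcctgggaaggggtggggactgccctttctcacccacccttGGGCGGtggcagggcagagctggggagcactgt

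The *Sgcb* window held 62.7% G and C with 24 CpG, 1 GC box, and no E-box, whereas the *Sgca* window held 52.7% G and C with 4 CpG, 2 E-boxes, and no GC box. *Dmd* had 3 E-boxes and 1 CArG box, a motif bound by serum response factor, and *Lama2* had 1 E-box, 1 GC box, and 1 CArG box. E-boxes, the motif that myogenic factors bind, were in 72.3% of all 32851 promoter windows, GC boxes in 35.7%, and CArG boxes in 1.63%, and the median window held 52.7% G and C. The other *Dmd* window, far downstream of the first within the gene at chrX:85048045-85048344, had 3 GC boxes and no E-box. The *Utrn* window had 7 E-boxes. The *Sgcd* window matched CATTCC on 1 strand, as did 14.7% of windows. These are letter matches, and binding was not measured.

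In Δ1w muscle, 1 of the 8 genes, *Sgcb*, fell and 0 rose at an adjusted p under 0.05 (limma, Benjamini-Hochberg over all 22206 rows), where 0.5% of all rows fell and 0.905% rose. At an unadjusted p under 0.05, 3 genes were lower (*Sgca*, *Sgcb*, and *Dag1*) and 1 was higher (*Dmd*), beside 6.79% of all rows lower and 7.2% higher. In Δ2w muscle 0 of the 8 passed, against 0.036% of rows higher and 0.00901% lower, and 3 were lower at an unadjusted p under 0.05 (*Sgcb*, *Dag1*, and *Sntb1*), beside 3.49% of rows lower and 3.98% higher at that threshold. Δ1w against Δ2w gave 0 of 8, against 0.0045% of rows higher and 0% lower, with *Sgcb* alone, lower, at an unadjusted p under 0.05 (3.99% of rows were lower and 4.3% higher). An F-test over the 3 groups passed for 1 gene, again *Sgcb* (adjusted p = 0.0278, limma), and for 0.653% of all rows, and was lost without any 1 of 6 of the 9 mice (control replicates 1, 2, and 6, Δ1w replicates 5 and 8, and Δ2w replicate 2). With 3 arrays per group, this number limits the precision, and in bulk muscle fewer cells of a type and less RNA per cell cannot be told apart. The signals are also normalised between arrays. A change here is therefore relative to the other RNA of the sample and is not an amount per nucleus or per fiber.

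The median change of the 8 genes in Δ1w muscle was 0.08 on the log2 scale, with 4 genes higher and 4 lower, beside −0.00227 over all rows, and the median size of change regardless of sign was 0.38, beside 0.20 for all rows. The corresponding values in Δ2w muscle were a median of 0.01, again with 4 higher and 4 lower, and a median size of 0.35 beside 0.17. The median gene signal was 6.37 to 6.44 over the arrays, whereas the 8 genes averaged 8.84 to 15.88. The 8 were chosen with earlier results known, so these sizes do not compare like with like. Both comparisons share the control arrays. Every Δ1w array lay above every control array for 1 gene (8.53% of all rows did) and below for 3 (8.95%), and every Δ2w array lay above for 2 genes (7.52%) and below for 3 (7.25%).

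**Figure D1:**
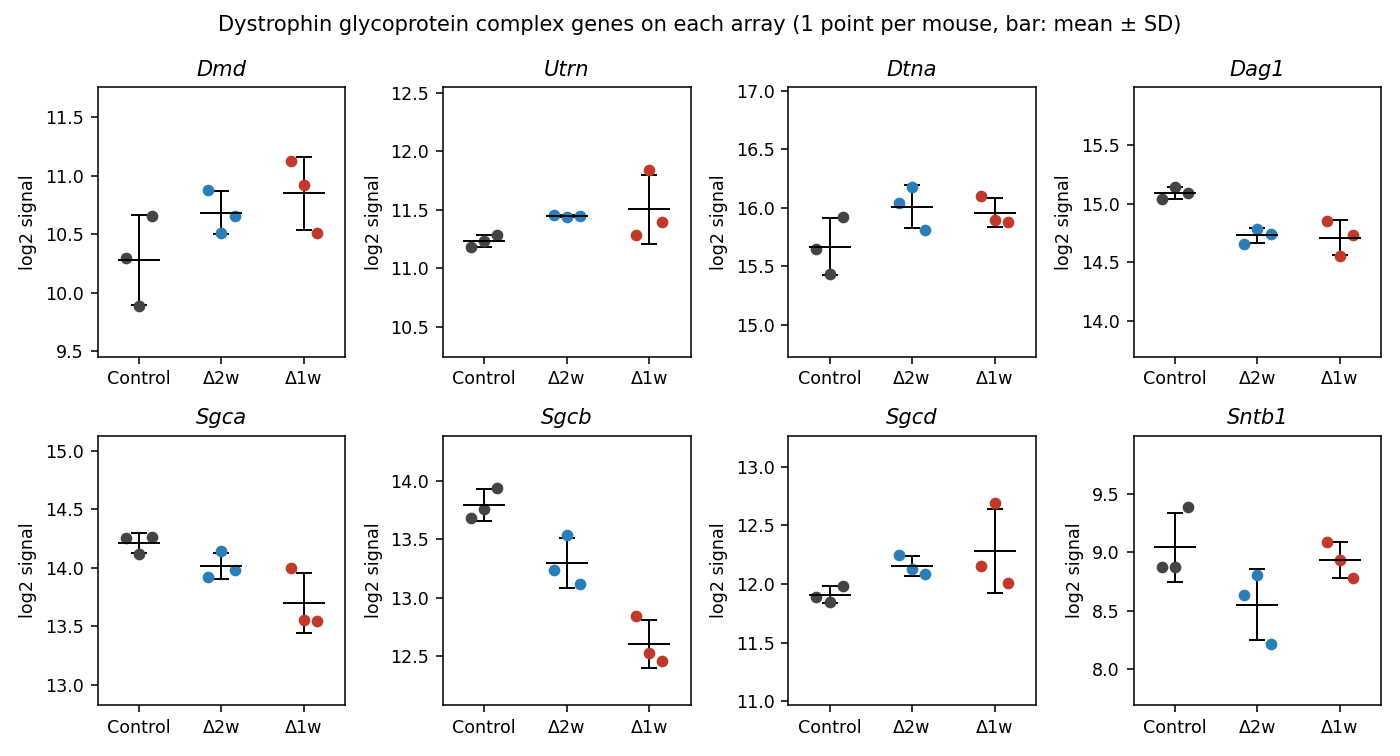
The log2 signal of each complex gene on each array, 1 point per mouse, with the mean and SD of 3 mice per group, for control, Δ2w, and Δ1w muscle; all panels span the same range of log2 units. *Sgcb* steps down from control (13.68 to 13.94) to Δ2w (13.12 to 13.54) to Δ1w (12.46 to 12.84) with no overlap.

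β-Sarcoglycan forms, with δ-sarcoglycan, the core on which the other sarcoglycans assemble. *Sgcb* signal was 13.68, 13.76, and 13.94 in control replicates 1, 2, and 6, 12.84, 12.53, and 12.46 in Δ1w replicates 1, 5, and 8, and 13.23, 13.54, and 13.12 in Δ2w replicates 2, 3, and 4. All Δ1w arrays were below all Δ2w arrays, and these were below all controls. In log2 units it fell by 1.18 in the Δ1w group (adjusted p = 0.00886, limma, standard error 0.18), to 0.44 times the control signal (95% interval 0.335 to 0.578). In Δ2w muscle the change was −0.50 (standard error 0.18, adjusted p = 0.585, limma), with 0.708 times the control signal (95% interval 0.539 to 0.93), and Δ1w differed from Δ2w by −0.69 (adjusted p = 0.351, limma), so the intermediate level of Δ2w did not pass against either neighbour. The fall in Δ1w muscle passed without each of the 9 mice in turn, at −1.30 to −1.11 and adjusted p from 0.00595 to 0.0460. With the prefix as a random block it was −1.17 (adjusted p = 0.0196), and within the prefix shared by control and Δ2w mice, that is without control replicate 2, the Δ2w value was −0.51 (adjusted p = 0.704). The fall in Δ1w muscle was −0.90 (adjusted p = 0.198, limma) with the clock index as a covariate and −0.95 (adjusted p = 0.277, limma) when replicate 1 alone stood for Δ1w, an alternative chosen after seeing the data.

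*Sgcb* is also expressed in smooth muscle, so the 10 pericyte and smooth muscle markers are given beside it. In Δ1w muscle 0 of them passed in either direction, where 0.905% of all rows rose and 0.5% fell. At an unadjusted p under 0.05, 1 of them was lower, beside 6.79% of all rows. The log2 of their summed signal was 16.15 to 16.65 in control, 16.07 to 16.31 in Δ1w, and 16.25 to 16.43 in Δ2w muscle. Of 12 fast fiber markers 0 passed as well, with 1 lower at an unadjusted p under 0.05, beside 6.79% of all rows. The log2 of their summed signal was 22.73 to 22.81 in control and 22.71 to 22.74 in Δ1w muscle. But *Acta1* and *Atp2a1* (19.88 to 19.93) were at the highest signal of the arrays, as was *Myh4* on Δ1w replicate 5 (19.88). This sum therefore cannot register a rise in them. Slow fiber markers rose for 6 of 11 in Δ1w muscle, beside 0.905% of all rows. The log2 of their summed signal was 17.35 to 17.60 in control, 18.08 to 18.31 in Δ2w, and 18.47 to 19.10 in Δ1w muscle. Over the Δ2w arrays the median change of this list was −0.27 with 5 of 11 genes higher, and its brightest gene, *Myoz2*, was at 16.96 to 17.14 in control and 17.84 to 18.09 in Δ2w muscle, so the summed level there follows *Myoz2* rather than the list. In Δ1w muscle *Myoz2* was at 18.05 to 18.59, so it also made up much of the summed level there. The median change of the list in Δ1w muscle was 1.49, with 10 of 11 genes higher. The part of slow fiber genes in the level of *Sgcb* was not tested.

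α-Sarcoglycan is made in striated muscle and joins the β- and δ-chains at the membrane. *Sgca* signal was 14.26, 14.12, and 14.26 in control, 13.99, 13.56, and 13.54 in Δ1w, and 13.93, 14.14, and 13.98 in Δ2w muscle. Each Δ1w array was below each control, with replicate 1 the highest of the group, and Δ2w overlapped both. Its change in Δ1w muscle was −0.51 (standard error 0.17, unadjusted p = 0.0121, adjusted p = 0.192, limma), and in Δ2w muscle −0.20 (adjusted p = 0.838, limma).

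*Sgcd* values lay on the other side of control. The signal of δ-sarcoglycan was 11.89, 11.85, and 11.99 in control, 12.15, 12.69, and 12.01 in Δ1w, and 12.25, 12.13, and 12.09 in Δ2w muscle. All 6 arrays of the deleted groups were above all controls, the closest at 12.01 against 11.99, and Δ1w replicate 5 was well above the others. Neither difference passed: 0.38 in Δ1w (95% interval −0.04 to 0.79, adjusted p = 0.411, limma) and 0.25 in Δ2w (95% interval −0.17 to 0.67, adjusted p = 0.808, limma). Without Δ1w replicate 5 the value in Δ1w muscle was 0.17.

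Dystroglycan, encoded by *Dag1*, is cut into the outer laminin-binding α-subunit and the membrane-spanning β-subunit. Its signal was 15.04, 15.14, and 15.10 in control, 14.85, 14.55, and 14.74 in Δ1w, and 14.66, 14.79, and 14.74 in Δ2w muscle. The deleted groups overlapped each other and both lay wholly below control. The changes were nearly the same size, −0.38 in Δ1w (standard error 0.15, adjusted p = 0.290, limma) and −0.36 in Δ2w muscle (standard error 0.15, adjusted p = 0.645, limma), and neither passed. Δ1w and Δ2w differed by −0.02 (95% interval −0.36 to 0.32).

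*Dmd* signal was 10.29, 9.89, and 10.65 in control, 11.12, 10.92, and 10.51 in Δ1w, and 10.88, 10.51, and 10.65 in Δ2w muscle. Control replicate 2 was the lowest of the 9 arrays and Δ1w replicate 1 the highest, and control replicate 6 lay inside the range of both deleted groups. The difference of Δ1w from control was 0.57 (95% interval 0.07 to 1.07, unadjusted p = 0.0278, adjusted p = 0.282, limma), and that of Δ2w was 0.40 (95% interval −0.09 to 0.90, adjusted p = 0.723, limma). Without control replicate 2 these values were 0.38 and 0.21. The annotation gives 1 row for *Dmd*, so transcripts from its separate starts were not distinguished.

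Utrophin is the nearest relative of dystrophin and binds the same partners. *Utrn* signal was 11.19, 11.24, and 11.29 in control, 11.28, 11.84, and 11.39 in Δ1w, and 11.45, 11.44, and 11.45 in Δ2w muscle. The Δ2w arrays were tightly grouped above all controls, whereas Δ1w replicate 1 was inside the control range and replicate 5 was the highest of all. Neither the 0.27 in Δ1w (95% interval −0.11 to 0.65, adjusted p = 0.546, limma) nor the 0.21 in Δ2w muscle (95% interval −0.17 to 0.59, adjusted p = 0.822, limma) passed. Without Δ1w replicate 5 the value in Δ1w muscle was 0.10.

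α-Dystrobrevin binds dystrophin and syntrophins directly. *Dtna* signal was 15.65, 15.43, and 15.92 in control, 16.10, 15.89, and 15.88 in Δ1w, and 16.04, 16.18, and 15.81 in Δ2w muscle. Control replicate 6 overlapped both deleted groups, and the other controls were below all of them. Its values were 0.29 in Δ1w (95% interval −0.11 to 0.68, adjusted p = 0.527, limma) and 0.34 in Δ2w muscle (95% interval −0.05 to 0.74, adjusted p = 0.708, limma), or 0.17 and 0.22 without control replicate 2.

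β1-Syntrophin is an adaptor with a PDZ domain on the inner face of the complex. *Sntb1* signal was 8.87, 8.87, and 9.38 in control, 9.09, 8.93, and 8.78 in Δ1w, and 8.64, 8.80, and 8.21 in Δ2w muscle. Δ2w lay below control on every array, the closest at 8.80 against 8.87, and Δ1w overlapped control. Its Δ2w value was further from control than its Δ1w value, at −0.49 (standard error 0.21, adjusted p = 0.642, limma) against −0.11 (adjusted p = 0.873, limma), and the direct difference of 0.38 between Δ1w and Δ2w did not pass (adjusted p = 0.665, limma). The Δ2w value was −0.32 without control replicate 6 or without Δ2w replicate 4. The signal of this gene was the nearest of the 8 to the array's background rows, the highest of which read 7.09 to 7.72.

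**Figure D2:**
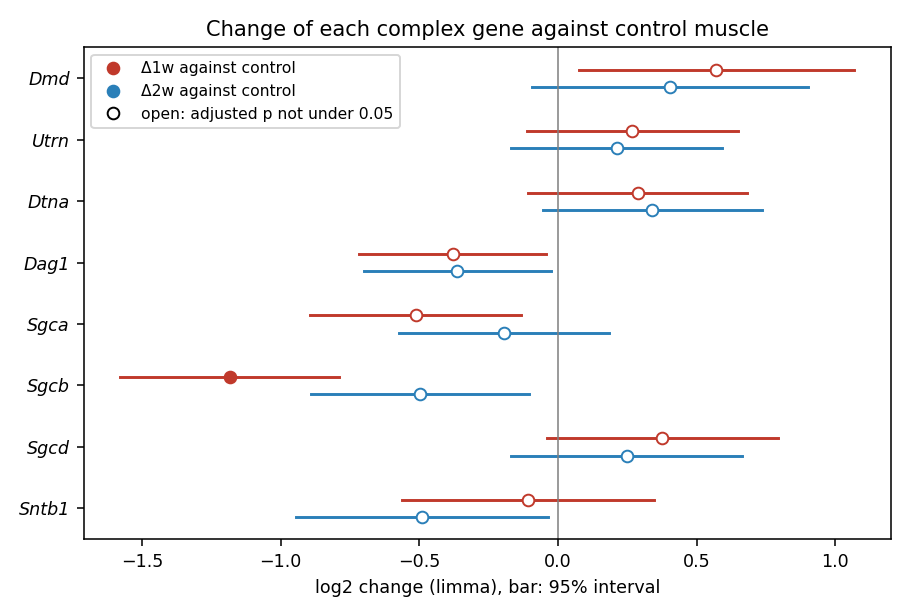
Log2 change of each complex gene in Δ1w (red) and Δ2w muscle (blue) against control, with the 95% interval from limma as a bar; a filled point passed at an adjusted p under 0.05. The filled point is *Sgcb* in Δ1w muscle at −1.18, while *Dmd*, *Utrn*, *Dtna*, and *Sgcd* lie to the right of 0 and *Dag1*, *Sgca*, and *Sntb1* to the left in both groups.

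The 3 genes most like *Dmd* over the 9 arrays, among 10862 candidates whose mean signal reached 6, were *Ifi30* (Pearson r = 0.96), *Plscr4* (0.95), and *Polr2d* (0.94). Those most like *Utrn* were *Fcrls* (0.95), *Fzd10* (0.95), and *B3galt2* (0.94). By ranks (Spearman) *B3galt2* was at 0.73, whereas the other genes named here were at 0.91 to 0.97. Picking the highest r among 10862 candidates over 9 arrays favours high values by itself. These correlations are descriptions over arrays that share their groups. The smallest adjusted p of the 6 genes against control was 0.126 (*B3galt2* in Δ1w muscle, limma).

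Beyond the 8 genes, 64 others that bind, modify, or neighbour the complex were measured. In Δ1w muscle 1 rose (*Lama2*), 1 fell (*Tln2*), and 62 did not pass, where 0.905% of all rows rose and 0.5% fell. At an unadjusted p under 0.05, 12 were higher and 9 lower (7.2% and 6.79% of all rows), and their median change was 0.04 over the 64. In Δ2w muscle 0 of the 64 passed, where 0.036% of all rows rose and 0.00901% fell. There 6 were higher and 2 lower at an unadjusted p under 0.05 (3.98% and 3.49% of all rows). In Δ1w against Δ2w 0 passed, beside 0.0045% of all rows higher and 0% lower. At the unadjusted threshold 3 were higher and 6 lower (4.3% and 3.99%).

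**Figure D3:**
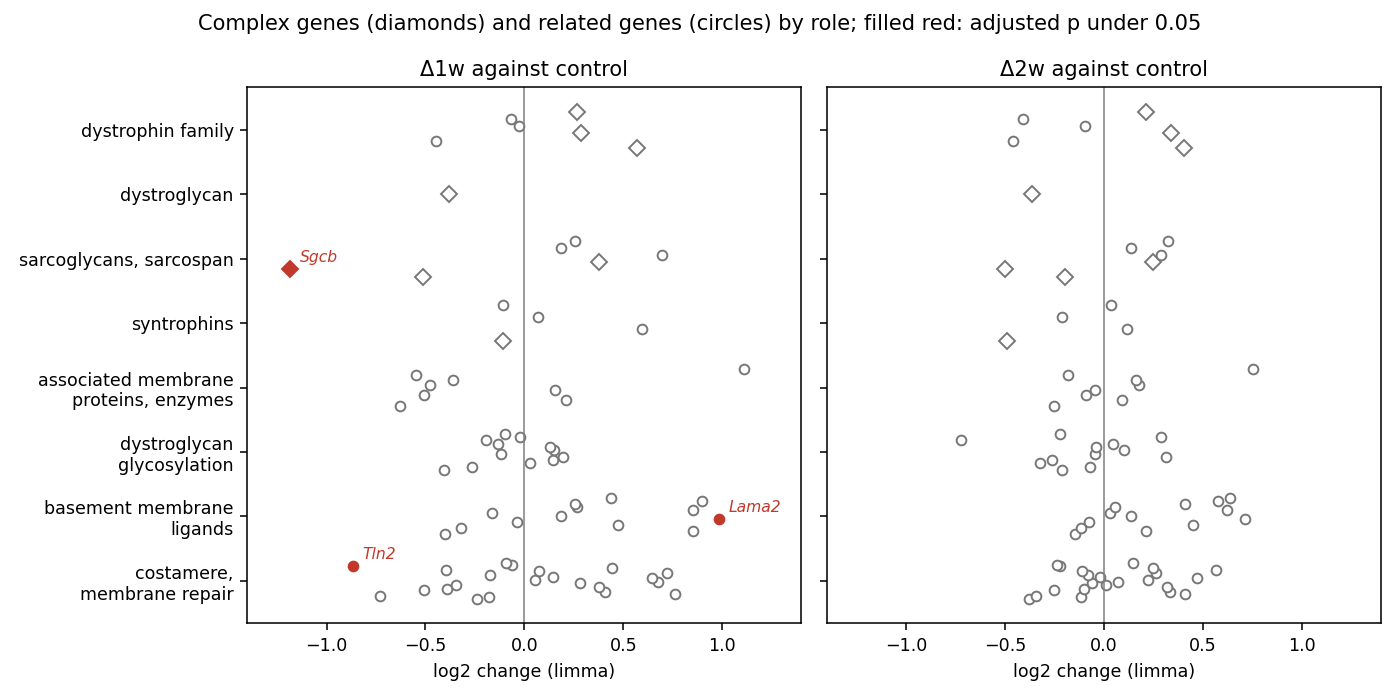
Log2 change against control in Δ1w (left) and Δ2w muscle (right) for the 8 complex genes (diamonds) and 64 related genes (circles), in rows by role, with genes spread vertically within a row for legibility. The filled red points, *Sgcb*, *Lama2*, and *Tln2* in Δ1w muscle, are those with an adjusted p under 0.05, and none is filled in Δ2w muscle.

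Among ligands on the outer side, *Lama2* encodes the α2-chain of the laminin that fills the basement membrane of adult muscle fibers, and its loss causes a congenital dystrophy. Its signal was 11.52, 11.38, and 11.66 in control, 12.26, 12.62, and 12.61 in Δ1w, and 12.26, 12.10, and 12.32 in Δ2w muscle. All 6 deleted-group arrays were above all controls, with Δ1w replicate 1 inside the Δ2w range. *Lama2* rose by 0.98 in Δ1w muscle (standard error 0.17, adjusted p = 0.0172, limma), to 1.98 times the control signal (95% interval 1.53 to 2.56), and its value in Δ2w muscle was 0.71 (standard error 0.17, adjusted p = 0.293, limma). The direct difference between Δ1w and Δ2w was 0.27 (adjusted p = 0.714, limma). The rise in Δ1w muscle did not pass without control replicate 1 or 2 or Δ1w replicate 5 or 8, at adjusted p from 0.059 to 0.0749, nor with the clock index as a covariate (0.81, adjusted p = 0.268).

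Of 13 basement membrane genes, *Lama2* was the 1 that passed in Δ1w muscle, where 0.905% of all rows rose and 0.5% fell. At an unadjusted p under 0.05, 5 were higher and 1 lower, beside 7.2% and 6.79% of all rows. *Nid1*, which encodes nidogen, a linker of laminin and collagen networks, was at 13.10, 12.79, and 12.90 in control and 13.38 to 14.1 in Δ1w muscle, a difference of 0.90 (adjusted p = 0.0601, limma) with no overlap. Fibroblasts also make these proteins, and 2 of 8 measured fibroblast markers rose in Δ1w muscle (*Dpt* and *Mfap5*), beside 0.905% of all rows. All 8 were higher at an unadjusted p under 0.05, beside 7.2% of all rows, with a median of 1.11. The log2 of the summed fibroblast signal was 17.83 to 18.55 in control, 18.41 to 18.88 in Δ2w, and 18.58 to 19.61 in Δ1w muscle. Its part in the levels of *Lama2* and *Nid1* was not tested.

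ε-Sarcoglycan, the widely expressed relative of α-sarcoglycan, had its highest group mean in Δ1w muscle. *Sgce* signal was 8.72, 8.92, and 9.10 in control, 9.27, 9.98, and 9.59 in Δ1w, and 9.17, 9.04, and 9.40 in Δ2w muscle, and Δ1w did not overlap control. Its value in Δ1w muscle was 0.70 (standard error 0.21, adjusted p = 0.134, limma) and did not pass. The part of the fibroblast signal, also higher in Δ1w muscle, in the level of *Sgce* was not tested. Of the 6 sarcoglycan and sarcospan genes measured, *Sgcb* fell, 0 rose, and 5 did not pass in Δ1w muscle. Of all rows, 0.5% fell and 0.905% rose there. In Δ2w muscle 0 of the 6 passed, where 0.00901% of all rows fell and 0.036% rose. *Sgcb* alone of the 6 was lower there at an unadjusted p under 0.05, beside 3.49% of all rows. Sarcospan (*Sspn*), a membrane protein that associates with the sarcoglycans, was higher on every Δ2w array than on every control, at 13.05 to 13.36 against 12.83 to 13.01, with a value of 0.32 (adjusted p = 0.721, limma).

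**Figure D4:**
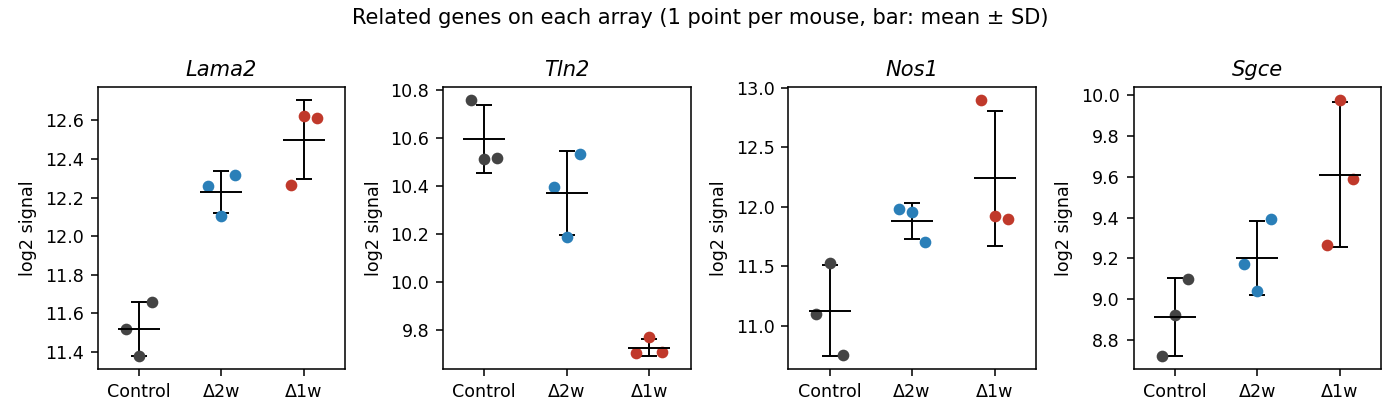
The log2 signal of *Lama2*, *Tln2*, *Nos1*, and *Sgce* on each array, 1 point per mouse, with the mean and SD of 3 mice per group; each panel has its own range. *Tln2* is at 9.70 to 9.77 in Δ1w muscle, below every other array, while *Lama2* is above control in both deleted groups.

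Talin-2, encoded by *Tln2*, couples integrins to actin at costameres, the rib-like sites where the complex also lies. *Tln2* signal was 10.76, 10.51, and 10.52 in control, 9.70, 9.77, and 9.71 in Δ1w, and 10.39, 10.19, and 10.53 in Δ2w muscle. The Δ1w arrays lay close together and below all others, and Δ2w overlapped control. *Tln2* fell by 0.87 in Δ1w muscle (standard error 0.16, adjusted p = 0.0244, limma), to 0.548 times control (95% interval 0.428 to 0.7). Its change in Δ2w muscle was −0.22 (adjusted p = 0.796, limma; −0.14 without control replicate 1, −0.13 without Δ2w replicate 3), and Δ1w differed from Δ2w by −0.64 (adjusted p = 0.329, limma). The fall did not pass without any 1 of the controls or without Δ1w replicate 5 or 8, at adjusted p from 0.0580 to 0.0933, nor with the clock index as a covariate (−0.93, adjusted p = 0.198).

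Of 22 costamere and membrane repair genes, *Tln2* was the 1 that fell in Δ1w muscle and 0 rose, beside 0.5% and 0.905% of all rows. At an unadjusted p under 0.05, 4 were higher and 3 lower, beside 7.2% and 6.79% of all rows. *Ano5*, a membrane protein whose loss causes a limb-girdle dystrophy, was at 13.61, 13.18, and 13.49 in control and 13.06, 12.46, and 12.58 in Δ1w muscle, a difference of −0.73 (adjusted p = 0.119, limma). The intermediate filament gene *Synm* was higher in all Δ2w arrays (11.95 to 12.35) than in control (11.07 to 11.82), at 0.56 (adjusted p = 0.601, limma).

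*Nos1* encodes neuronal nitric oxide synthase, which the complex holds at the fiber membrane. Its signal was 11.10, 11.53, and 10.76 in control, 12.90, 11.93, and 11.90 in Δ1w, and 11.98, 11.96, and 11.70 in Δ2w muscle. No array of either deleted group overlapped control, and Δ1w replicate 1 stood above its group. The values were 1.11 in Δ1w (95% interval 0.51 to 1.72, adjusted p = 0.0769, limma) and 0.75 in Δ2w muscle (95% interval 0.15 to 1.36, adjusted p = 0.594, limma), and neither passed. Of the 8 associated membrane proteins and enzymes 0 passed in either group, beside 0.905% of all rows higher and 0.5% lower in Δ1w muscle. In Δ2w muscle these shares were 0.036% and 0.00901%. At an unadjusted p under 0.05 Δ1w muscle had 1 of the 8 higher and 3 lower, beside 7.2% and 6.79% of all rows. Δ2w muscle had 1 higher at that threshold, beside 3.98% of all rows. *Mark2*, a kinase, was at −0.55 in Δ1w muscle (adjusted p = 0.170, limma), with signals of 5.78 to 6.71 over all arrays, below the highest background rows.

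Enzymes that build the laminin-binding sugar of α-dystroglycan gave 0 calls among 12 in Δ1w and in Δ2w muscle. Of all rows, 0.905% rose and 0.5% fell in Δ1w muscle, and 0.036% rose and 0.00901% fell in Δ2w muscle. The medians of the 12 were −0.06 in both. In each, 1 gene was lower at an unadjusted p under 0.05, beside 6.79% of all rows in Δ1w and 3.49% in Δ2w muscle. *B3galnt2*, which adds a sugar of the core chain, was at −0.41 (adjusted p = 0.351, limma) and *Dolk*, a dolichol kinase that supplies sugar donors, at −0.26 (adjusted p = 0.501, limma) in Δ1w muscle. *Pomk*, the kinase that phosphorylates the core sugar, was at 8.06, 7.54, and 7.75 in control and 7.02, 7.11, and 7.04 in Δ2w muscle. This was the Δ2w value furthest from 0 among lower related genes, −0.72 (adjusted p = 0.359, limma), at signals near the background rows.

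Among relatives of the 8 genes, *Sntb2* (β2-syntrophin) was above every control in Δ1w muscle, at 8.41 to 8.81 against 7.89 to 8.18, with a value of 0.59 that did not pass (adjusted p = 0.172, limma). *Drp2*, a dystrophin-related gene known from Schwann cells, was at 5.80 to 6.54 over all arrays, under the highest background rows, with −0.45 in Δ1w (adjusted p = 0.295, limma) and −0.46 in Δ2w muscle (adjusted p = 0.619, limma). *Dytn*, *Sntg1*, and *Sntg2* were between 3.77 and 5.15 on all arrays, also under those rows, and had adjusted p of at least 0.757 in both comparisons with control.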

How the data were processed

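Total RNA from TA muscle of 9 mice was measured on Clariom S Mouse arrays, 1 per mouse. The authors made the deposited log2 signals by signal space transformation and robust multi-array averaging (sst-rma), which adjusts background, normalises arrays to each other, and gives 1 value per gene. The methods name the Transcriptome Analysis Console and the processing notes name Affymetrix Expression Console. No source used here gives the genome build behind the probes. Of 28846 rows, 22206 gene rows were tested and 6640 other rows were not, and 0 per-sample columns were left unused. Symbols come from the platform annotation, which holds 1 row for each of the 8 genes.

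All 9 arrays were fitted in 1 model of 3 groups by limma 3.58.1 under R 4.3.3 (lmFit, then eBayes), which left 6 residual degrees of freedom. P-values are two-sided and were adjusted by Benjamini-Hochberg over 22206 rows, and a gene was called at an adjusted p under 0.05. The labels name 9 separate mice. The members, lists, and tests were chosen with earlier results of these data known. Genes named beyond the 8 are those called, in each list the 2 of smallest p for Δ1w and the 1 for Δ2w muscle, the 3 most alike to *Dmd* and to *Utrn*, and, in the closing section, 3 whose Δ1w and Δ2w arrays lay on opposite sides of control. Some listed genes are not reported here. Levels were tested only between groups for the same gene, and levels of different genes, where set side by side, are descriptions. The model was tested on simulated data. Alternatives were leaving out each mouse, repeated quantile normalisation, median centring, a minimum mean log2 signal of 6, array weights, a trended and robust variance, a fit of only the 2 groups at hand, sample name prefix as a random block, LacZ allele, mean of Y-linked genes, or clock index as a covariate, a 2-fold change with an unadjusted p, and the methods' t-test. Promoter sequences are from RefSeq (GRCm38.p6, 32851 windows). Plots were made in Python 3.11.15 (matplotlib 3.10.9).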

Additional observations from a re-analysis of the deposited data

Results flagged for a closer look

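In 3 genes that border the complex, every Δ1w array lay below the control mean and every Δ2w array above it. This arrangement was found in 1.04% of all rows, and it or its reverse in 1.97%. They were named for lying on opposite sides of control, in either direction, among the 8 complex genes and 64 related genes. *Synm*, which encodes the intermediate filament protein synemin, was at 11.01 to 11.29 in Δ1w and 11.95 to 12.35 in Δ2w muscle, a difference of −0.96 (adjusted p = 0.287, limma). *Kcnj12*, an inward rectifier potassium channel, was at 9.57 to 10.48 and 10.60 to 10.88, a difference of −0.66 (adjusted p = 0.471, limma). *Mapk12*, a p38 kinase, was at 10.32 to 10.75 and 10.95 to 11.24, a difference of −0.52 (adjusted p = 0.452, limma). The direct test of Δ1w against Δ2w did not pass for any of the 3.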

How the results depend on the processing

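The fall of *Sgcb* in Δ1w muscle kept its direction in all 20 alternatives fitted with limma and passed in 18 of them. These alternatives reuse the same arrays, and with no overlap between the groups, leaving out a mouse could not turn the direction. The prefix block cannot separate the prefix from the deletion, since no Δ1w mouse shares a prefix with a control. The count of 1 complex gene called in Δ1w muscle became 0 with the clock index as a covariate, 0 with the methods' t-test after Benjamini-Hochberg, 0 when replicate 1 alone stood for Δ1w (chosen after seeing the data), and 3 with the methods' t-test unadjusted, which also gave 4 in place of 0 in Δ2w muscle and 1 in place of 0 between Δ1w and Δ2w. The F-test count of 1 was 0 to 1 when each mouse was left out (0 for 6 of the 9), and 0 with the name prefix as a block, the LacZ allele or the clock index as a covariate, or Δ1w replicate 1 alone. The count of 2 related genes called in Δ1w muscle was 0 to 8 when each mouse was left out (8 without Δ1w replicate 1), 4 with a minimum mean log2 signal of 6 or with trended and robust variance, 1 with a 2-fold change and unadjusted p, 0 with only the 2 groups compared, the clock index, the t-test after Benjamini-Hochberg, or Δ1w replicate 1 alone, and 13 with the unadjusted t-test, which gave 12 in Δ2w muscle and 7 between the deleted groups, in place of 0. The share of all rows that passed under each of these settings is not reported here. These counts are therefore not read as a trait of the listed genes. The cause of the changes in count was not tested.

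Signs turned for 5 small differences, none of which passed in any of these. For *Dag1* between Δ1w and Δ2w (−0.02), leaving out each mouse gave −0.0868 to 0.0631, the clock index 0.0743, and Δ1w replicate 1 alone 0.121. For *Dtna* (−0.05) they gave −0.15 to 0.0308, 0.146, and 0.0901, and the LacZ covariate gave 0.0334. For *Utrn* (0.06) they gave −0.109 to 0.168, −0.0588, and −0.165. For *Sgcd* (0.13), leaving out each mouse gave −0.0752 to 0.266 and Δ1w replicate 1 alone −0.000737. For *Sntb1* in Δ1w muscle (−0.11) leaving out each mouse gave −0.195 to 0.0608, the clock index 0.174, and Δ1w replicate 1 alone 0.0446. No paired analysis was possible because the labels define no pairs of mice between the groups. Another row for a symbol could not be tried, since each of the 8 genes has 1. The signal of *Pomk* is close to background, which limits what its change can show.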
